A study of Mus musculus with 2 samples.

Results

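The splicing regulators described here are the SR proteins, the heterogeneous nuclear ribonucleoproteins (hnRNPs) and the kinases that phosphorylate SR proteins. They were measured in peritoneal macrophages of male C57BL/6 mice. Members were taken by gene symbol: every Srsf and Hnrnp gene, the CDC-like kinase genes Clk1 to Clk4, and Clasrp, Srrm1, Srrm2, Srpk1, Srpk2, Tra2a and Tra2b. This gave 40 genes, read by 126 probe sets, of 18193 genes with a probe set assigned to a single gene. By role they were 10 SR protein genes, 5 SR-related genes, 19 hnRNP genes and 6 kinase genes. Srsf7 and Hnrnpa3 had no probe set assigned to them alone and were not analysed here.

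The study has 1 array of cells given a control siRNA and 1 array of cells given an siRNA against HDAC9, a histone deacetylase, both harvested 48 h after transfection. Which transcripts differ after the knockdown was the question set by that design. No replicate exists, so each difference below is one between 2 arrays, without a spread between cultures and without a test. The labels do not say how many mice gave the cells, and they give no sequence for either siRNA.

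SR proteins bind short exonic sequences through RNA recognition motifs and recruit the spliceosome through a tail rich in arginine and serine. SRPK kinases phosphorylate that tail in the cytoplasm, which lets the protein enter the nucleus, and CLK kinases phosphorylate it further in the nucleus. The hnRNPs coat nascent transcripts and often oppose the use of nearby splice sites. Many of these genes make several splice forms of their own mRNA, some of which are degraded, and probe sets of the same gene can therefore read different forms.

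Signals are on the authors' log2 scale, and a ratio is the signal of the knockdown array minus that of the control array. Signals under a floor of 6.34, the 95th percentile of 80 probe sets for olfactory and vomeronasal receptors, were raised to the floor, and a ratio with 1 array at the floor is a bound. Each gene is represented by its brightest probe set unless another is named. The arrays had 51.4% and 53.6% of probe sets above the floor. The target Hdac9 was itself near it, at 6.88 in control cells and 5.69, below the floor, in knockdown cells by one probe set, while the other, at 5.99 and 5.94, was below the floor on both arrays. Macrophage markers were present (11 of 11 above the floor), with linear signals that summed to 90039 in control and 87933 in knockdown cells. The 13 mesothelial and stromal markers were also all above the floor and summed to 47751 and 62491, with Col1a1 (1.80) and Col3a1 (1.46) past 2-fold higher and Msln (-1.11) past 2-fold lower. Few markers of T and NK cells (2 of 8), B cells (2 of 6) or neutrophils, mast cells and dendritic cells (2 of 9) were above the floor. On both arrays these were Thy1 (7.74 and 7.03), Cd22 (10.87 and 11.10), S100a8 (9.13 and 8.91) and Zbtb46 (7.42 and 7.67), on 1 array Cd8a and Pax5, and Cd3e, Cd79a and Mpo were below it on both. The part of other cell types in the values below was not tested, and in such bulk RNA fewer cells of a type and less RNA per cell cannot be told apart.

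Of the 40 splicing regulator genes, 39 were above the floor, all of them on both arrays. Srsf12 alone was below it on both, at 4.38 and 1.29. Clasrp, which encodes an SR-related protein that associates with CLK4, was the only member gene at least 2-fold higher (1 of 39, against 1.44% of the 12090 genes above the floor), and 0 of 39 were at least 2-fold lower (0.372% of all genes). At 1.5-fold the count was still 1 of 39, where 10.6% of all genes passed. The median ratio of the members was 0.01, with 21 above 0 and 18 below it, and that of all genes was 0.03. Centring each array on the median of the probe sets above the floor on both arrays left 9 members above 0. After quantile normalization 23 were above 0, and after loess 24. The middle of the members' distribution was narrow, with 25th and 75th percentiles of -0.10 and 0.05 against -0.15 and 0.25 for all genes.

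Most of these genes were bright, and bright probe sets scattered less. The brightest 25% of genes held 28 of the 39 members, and in that class 0.265% of genes were past 2-fold and 2.22% past 1.5-fold in either direction, against 0 of the 28 members at either threshold. The median size of the ratio was 0.08 among those 28 members and 0.12 among the 3023 genes of that class. With its sign, the median ratio was -0.010 for those members and -0.045 for the genes of that class, with 50% and 38.6% above 0. With no replicates, the scatter of a single probe set was taken from the 2 brightest probe sets of 5671 genes. It came to 0.29 log2 units, or 0.21 over the 26 members with several probe sets. Both probe sets of a gene were read on the same 2 arrays, so this scatter does not measure variation between cultures. Differences between splice forms can add to it. Within 0.29 lay 35 of the 39 members (89.7%), against 65.7% of all genes. In the brightest 25% it was 25 of the 28 members (89.3%) and 84.8% of the genes.

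**Figure D1:**
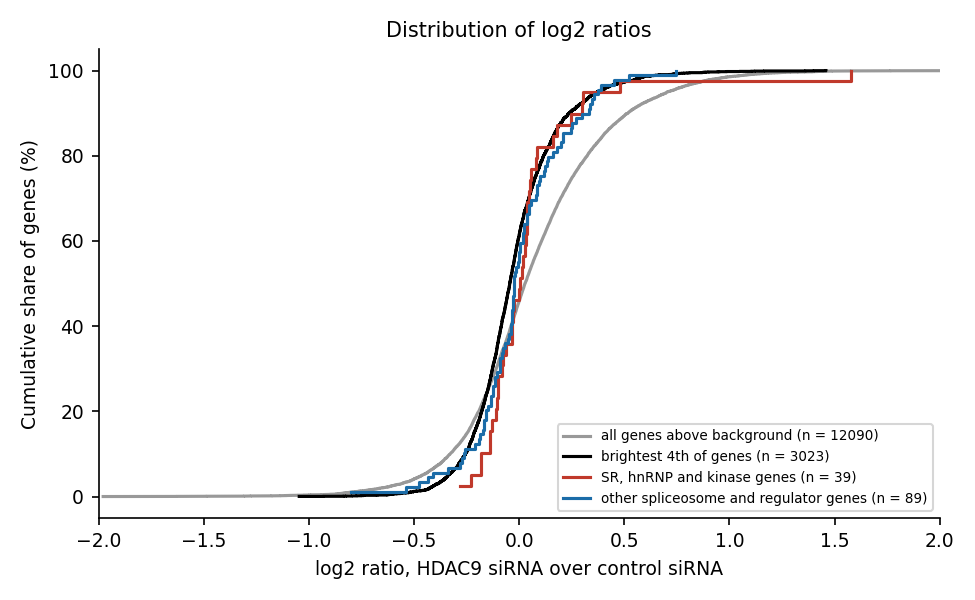
Cumulative share of genes (y axis, percent) against the knockdown over control ratio in log2 units (x axis) for the 39 SR, hnRNP and kinase genes above the floor, the other spliceosome and regulator genes, the brightest 25% of genes and all 12090 genes above the floor. The curves of both splicing groups run near that of the bright genes and are steeper than that of all genes, Clasrp is the step at 1.58, and the x axis stops short of the highest values of all genes.

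The promoters of the only members with a probe set past 2-fold, Clasrp and Srrm1, are shown because these genes carry the differences described below. The sequences are from RefSeq's annotation of GRCm38.p6, on the minus strand, and end at the last base before the annotated gene. Capitals mark matches, on either strand, to GGGCGG (GC box), CCAAT, and GCATGCGC (a form of the NRF1 motif, whose matches on both strands overlap here).

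Clasrp, chr7:19604518-19604736: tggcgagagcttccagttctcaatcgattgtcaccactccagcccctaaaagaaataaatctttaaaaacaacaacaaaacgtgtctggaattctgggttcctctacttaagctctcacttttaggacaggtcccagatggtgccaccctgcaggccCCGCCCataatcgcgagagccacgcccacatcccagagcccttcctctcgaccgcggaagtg

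Srrm1, chr4:135353278-135353396: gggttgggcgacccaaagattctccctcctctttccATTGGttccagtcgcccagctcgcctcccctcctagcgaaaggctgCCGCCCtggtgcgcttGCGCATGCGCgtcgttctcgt

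The Clasrp stretch of 219 bases had 52.1% G and C and 1 GC box, 57 to 62 bases before the gene. The Srrm1 stretch of 119 bases had 63.9% G and C, with a GC box 32 to 37 bases and a CCAAT match 79 to 83 bases before the gene. Over the 250 bases before each start, windows were found for 37 of the 40 members (all but Clk1, Hnrnpll and Hnrnpul2). A GC box lay in the windows of 31 of these 37 genes (83.8%), against 62.9% of the 9782 genes above the floor with a window and 35.4% of all 27025 genes with one. TGACG, the core of the cyclic AMP response element, was present in 21 of 37 (56.8%, against 30.3% of genes above the floor), and CCAAT in 19 of 37 (51.4%, against 40.1%). TATAAA was present in 3, Srsf2, Srsf3 and Hnrnpm (8.11%, against 8.43%). The NRF1 form GCATGCGC was also present in 3, Hnrnph1, Srrm1 and Srsf11 (8.11%, against 5.02%). CCGGAAG, the ETS core, was present in 7 (18.9%, against 15.4%). Clasrp had 2 windows, and its printed stretch comes from the first. The MEF2 motif, bound by the factors that class IIa deacetylases such as HDAC9 associate with, matched in 1 member, Srsf3 (0.511% of genes above the floor), and in neither printed stretch. The member windows also had more G and C, with a median of 64.4% against 59.6% for windows of genes above the floor. The part of base composition in the motif shares was not tested.

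The SR-related genes held the largest difference. Clasrp went from 6.92 in control cells to 8.50 in knockdown cells, a 2.99-fold higher signal (ratio 1.58). Only 11 of 12090 genes, Clasrp included, had a ratio as high or higher. Clasrp was also the only member in the second dimmest class of 25% of genes, where 2.15% were at least 2-fold higher. Clasrp was read by 1 probe set, whose suffix _a_at marks probes shared by several transcripts of a gene, so no second reading exists. The ratio of Clasrp stayed between 1.48 and 1.58 under the 7 alternatives that kept that probe set. Most of these could not test it. Its signals lay above both other floors, and the median over a single probe set is that probe set, so these left the ratio unchanged. Having no floor hardly moved it. Only centring, quantile normalization and loess acted on it, and the lowest value, 1.48, came from quantile normalization. Of the neighbouring genes in the RefSeq table, Relb, an NF-kappaB subunit gene, was at 8.27 and 8.64 (ratio 0.37) and Gemin7 was at 10.01 and 9.78 (ratio -0.23). Zfp296 was below the floor on both arrays, so no ratio can be read for it.

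Srrm1 encodes a splicing coactivator that joins SR proteins bound at exons to the spliceosome. Its brightest probe set read 10.6 on both arrays (ratio 0.03). The other probe sets of the gene were dimmer and mostly higher in knockdown cells. The one past 2-fold went from 6.79 to 7.98 (2.29-fold, ratio 1.19; 1.06 to 1.19 under the alternatives), another from 9.19 to 9.77 (0.58) and another from 8.32 to 8.80 (0.48). Of the remaining ones, that at 9.62 in control cells had a ratio of 0.24 and that at 6.59 one of -0.03, and the last was below the floor in control cells, with a bound of at least 0.37. Ratios were thus above 0 for 6 of the 7 probe sets, with a median of at least 0.37, since the middle one is the bound, and the value for Srrm1 depends on which probe set is read.

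Srrm2, which encodes a scaffold protein of nuclear speckles, also varied with the probe set. The brightest went from 10.6 to 11.0 (ratio 0.48), the next had a ratio of 0.06 and the dimmest one of -0.29. The 2 paralogues related to the fly gene transformer 2, which act on exon enhancers, differed little by their brightest probe sets, at 11.3 and 11.4 for Tra2a (0.03) and 12.3 and 12.1 for Tra2b (-0.18). The dim probe sets of Tra2a spread in both directions. Their ratios were 0.20 and 0.55, a bound of at least 0.63 and, in the other direction, a bound of -0.59. The median of the 5 SR-related genes was 0.03, or -0.03 after centring, 0.06 after quantile normalization and 0.07 after loess. It was 0.20 with the median probe set of each gene in place of the brightest. Leaving out probe sets with letter suffixes gave 0.17 over the 4 genes left.

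**Figure D2:**
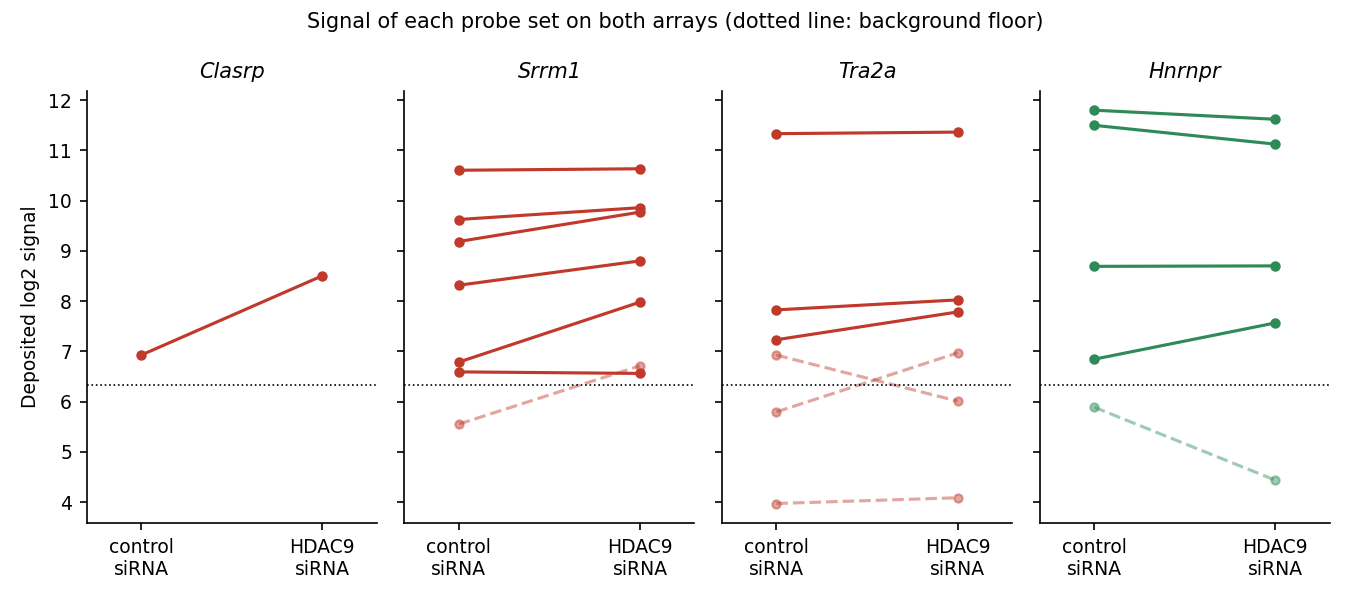
Deposited log2 signal (y axis) of each probe set on the control and HDAC9 siRNA arrays (x axis) for Clasrp, Srrm1, Tra2a and Hnrnpr; solid lines are probe sets above the floor of 6.34 (dotted) on both arrays, and dashed lines those below it on at least 1. Clasrp rises from 6.92 to 8.50, while in the other genes the brightest probe set is nearly level and the dim ones diverge.

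The SR proteins proper differed little. The 9 Srsf genes above the floor had ratios from -0.28 to 0.30, with 5 above 0 and 4 below it, and a median of 0.00 (-0.06 after centring). Srsf1, a factor in both constitutive and enhancer-dependent splicing, read 12.7 in control and 12.6 in knockdown cells (-0.10). Srsf9 had the highest ratio, at 11.4 and 11.7 (0.30), and its single probe set was just past the scatter of 0.29. Srsf11 had the lowest, at 12.1 and 11.9 (-0.28). Srsf6 (0.08), Srsf5 (0.05), Srsf2 (0.01), Srsf4 (0.00), Srsf3 (-0.10) and Srsf10 (-0.11), a splicing repressor after heat shock, lay between them.

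Single probe sets of SR genes departed from the rest of their gene. For Srsf2, the speckle protein also known as SC35, the 3 bright probe sets had ratios of 0.01, -0.13 and -0.10, while a dim one went from 7.54 to 6.79 (1.68-fold lower, -0.75). For Srsf3, 5 of the 6 probe sets lay between -0.11 and -0.04 and the other was at -0.55. The suffix _x_at of that probe set marks probes that can bind other transcripts as well. For Srsf1, the dimmest probe set was below the floor in control cells (4.19) and at 6.88 in knockdown cells, a bound of at least 0.54, and the other 6 probe sets lay between -0.28 and 0.15.

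The hnRNP genes were nearly level, with a median size of the ratio of 0.06. All 19 were above the floor on both arrays, with ratios from -0.18 to 0.30, and 18 lay within the scatter. Hnrnpd, also known as AUF1, which binds AU-rich elements of short-lived inflammatory mRNAs, had the highest ratio, at 11.3 and 11.6 (0.30), but its other probe set above the floor had one of -0.28. Hnrnpa0 (0.24), Hnrnpll, which silences exons of the CD45 transcript in lymphocytes (0.18), Hnrnph1 (0.08) and Hnrnpa1 (0.05) followed. At the other end were Hnrnpr (-0.18), Hnrnph3 (-0.14), Hnrnpa2b1 (-0.13), Hnrnph2 (-0.11) and Hnrnpul1 (-0.08). The median was -0.03, or -0.09 after centring, and it turned to 0.03 after quantile normalization or loess. Near-identical copies of Hnrnpa1 exist in the genome, so its probe sets may not read that gene alone.

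Hnrnpc and Hnrnpr showed the widest differences between probe sets among the hnRNPs. Hnrnpc encodes a protein that binds uridine tracts and keeps cryptic exons out of mRNA. Its brightest probe set read 13.1 on both arrays (-0.03), while another went from 10.7 to 9.87 (1.74-fold lower, -0.80). That was the only member probe set past 1.5-fold among the 91 with a mean signal at or above 8.72, the median over all probe sets above the floor. For Hnrnpr, the 2 brightest probe sets had ratios of -0.18 and -0.37, the next had one of 0.01, and the dimmest above the floor went from 6.84 to 7.57 (0.72). Spreads were smaller in Hnrnpab, from -0.14 to 0.49 over 6 probe sets, and in Hnrnpu, from -0.44 to 0.05 over 5. Hnrnpk, a poly(C) binding protein gene, was even across its 4 probe sets, from -0.03 to 0.12.

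The kinases showed no ratio past the scatter of 0.29 by their brightest probe sets, and 1, Srpk1, past the 0.21 found among the members. Clk1 read 11.3 and 11.2 (-0.07), Clk2 9.91 and 9.95 (0.04), Clk3 9.43 and 9.45 (0.02), and Clk4, the partner after which Clasrp is named, 10.1 and 9.95 (-0.14). The second probe set of Clk4 was at -0.12. Of the cytoplasmic kinases, Srpk1 went from 10.5 to 10.3 (-0.23) and Srpk2 from 9.92 to 10.1 (0.16). Both had probe sets in the opposite direction. The second probe set of Srpk1 was at 0.32, and those of Srpk2 ranged from -0.31 to 0.48. The median of the 6 kinases was -0.03, or -0.09 after centring, and 0.01 with the median probe set of each gene in place of the brightest.

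**Figure D3:**
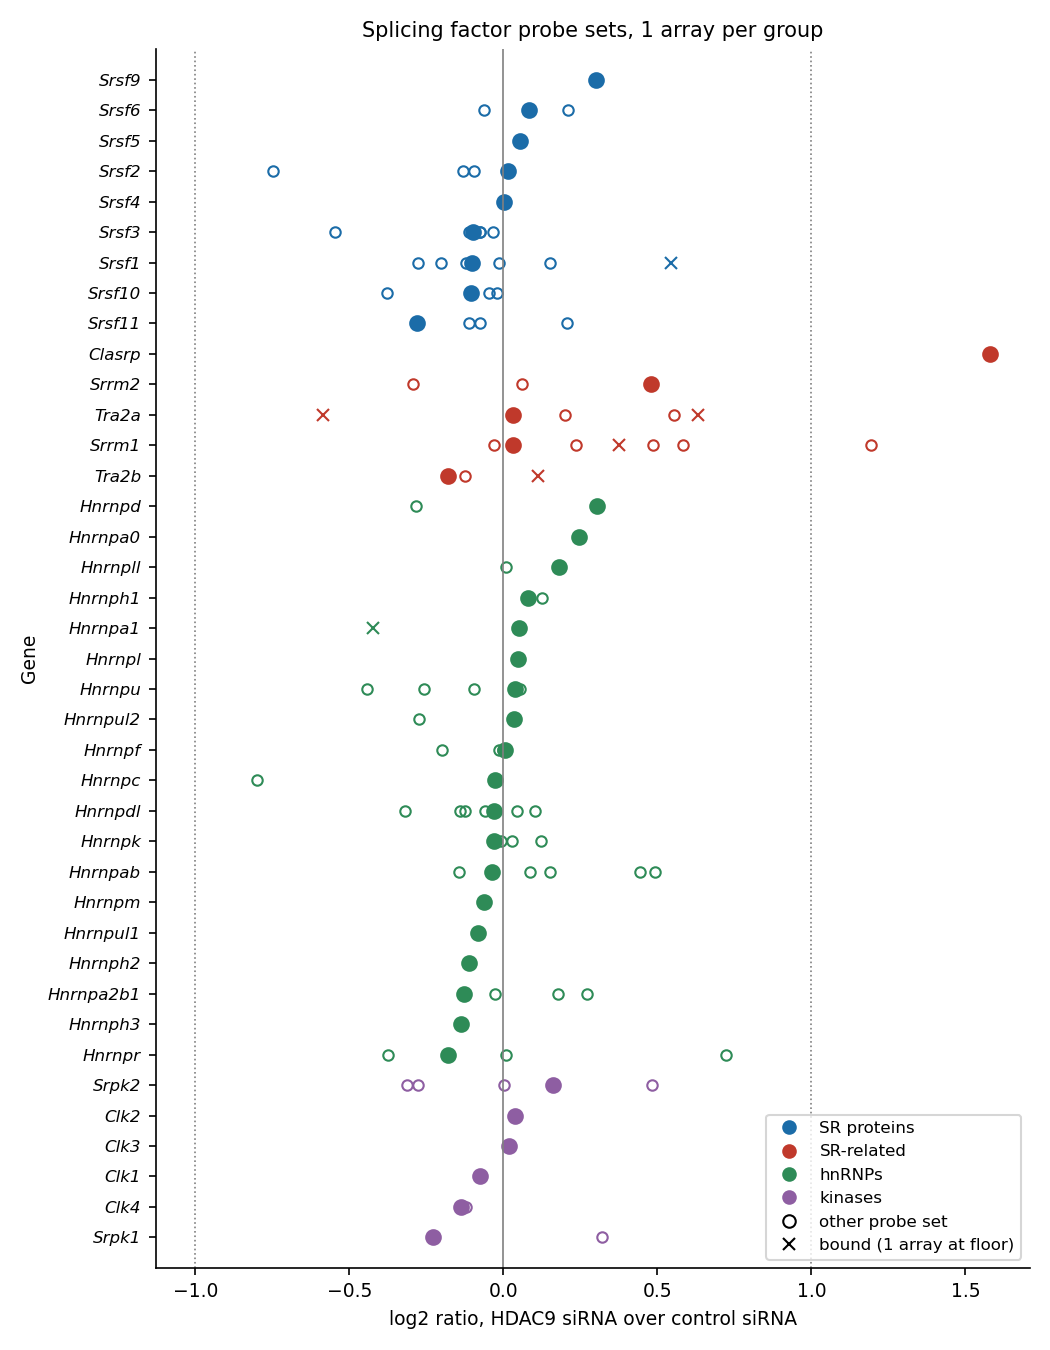
Knockdown over control ratio in log2 units (x axis) for each of the 39 member genes above the floor (y axis), coloured by role; filled points are the brightest probe set of a gene, open points its other probe sets, crosses bounds, and dotted lines 2-fold. Filled points other than that of Clasrp lie between -0.28 and 0.48, and open points scatter more widely.

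Counted by probe set, 116 of the 126 were above the floor on at least 1 array and 110 on both. At least 2-fold higher were 2 of the 116, those of Clasrp and Srrm1 (1.44% of all probe sets above the floor), and 0 were at least 2-fold lower (0.506% of all). Past 1.5-fold in either direction were 7 of the 116, where 11.6% of all probe sets passed. Of these 7, 4 were higher (Clasrp, Srrm1, Hnrnpr and, as a bound, Tra2a) and 3 lower (Hnrnpc, Srsf2 and, as a bound, Tra2a). The dim probe sets held most of them. Of 25 member probe sets with a mean signal under 8.72, 6 passed 1.5-fold (24.0%, against 18.7% of all probe sets in that range), and of 91 brighter ones 1 did (1.10%, against 4.43%).

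**Figure D4:**
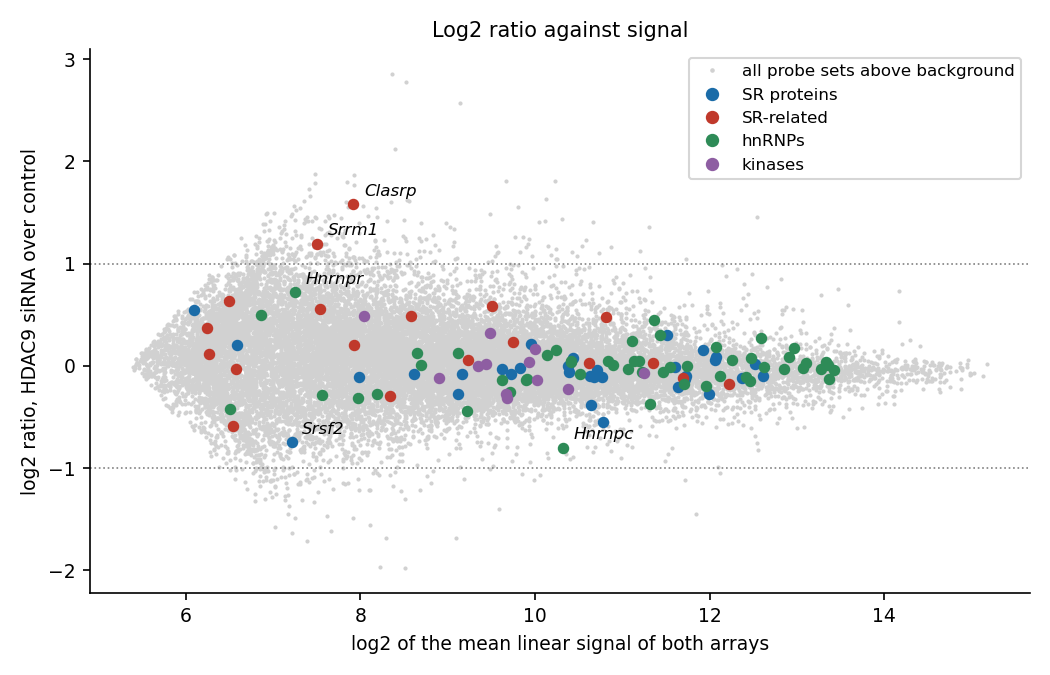
Knockdown over control ratio in log2 units (y axis) against the log2 of the mean linear signal of both arrays (x axis) for member probe sets, coloured by role, and for all 21955 probe sets above the floor (grey); dotted lines mark 2-fold. Member probe sets lie near 0 at high signal, and 6 of the 7 past 1.5-fold lie at a signal under 8.72.

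Several probe sets above the floor were available for 26 members. Their ratios spanned at least 1 log2 unit in 3 of the 26, Srrm1 (1.22), Tra2a (1.22) and Hnrnpr (1.10), where 7.72% of the 5671 genes with several probe sets did so. Members had many probe sets, which widens a span. Among genes with 4 or more, it was 3 of 16 members and 18.6% of 1027 genes, with a median span of 0.50 for the members and 0.62 for those genes. Using only probe sets above the floor on both arrays, which was decided with the values in view, Srrm1 and Hnrnpr were left (2 of 26, against 5.69% of 4953 genes) and the span of Tra2a was 0.52. With the 2 brightest probe sets of each gene it was 0 of 26, against 3.07% of 5671 genes. All probe sets of a gene pointed the same way in 2 of the 16 members with 4 or more (Srsf3 and Srsf10, both lower), and in 22.0% of the 1027 genes. Sequences of the array probes were not used here, so which splice form each probe set reads was not tested.

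The rest of the splicing machinery is given for context, where 1.44% of all genes were at least 2-fold higher and 0.372% at least 2-fold lower, shares that come to under 1 gene in lists of these sizes. Of 44 core spliceosome genes measured, 0 were past 2-fold in either direction, 18 were above 0, and their median ratio was -0.03. Past 1.5-fold was 1 of the 44 in each direction, where 10.6% of all genes passed in either direction. These were Prpf3, a protein gene of the U4/U6 particle (-0.80), and Sf3a2, of the U2 particle (0.75), followed by U2af2 (0.52). Of 45 other splicing regulators, 0 were past 2-fold and the median was -0.02, with Pnn (-0.54), Ptbp2 (-0.48) and Pcbp2 (0.37) the farthest from 0. Of 11 further kinases, phosphatases and import factors above the floor, 0 were past 2-fold and the median was -0.04, with Dyrk1b at a bound of -0.76, Cdk13 at 0.34 and Cdk11b at 0.23.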

How the data were processed

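Per the submitters' processing notes, the authors made the values with MAS5. They deposited 1 log2 signal for each probe set and array. The MAS5 settings, its scaling target among them, were not given in the sources used here. Trimmed mean linear signals (without the highest and lowest 2%) were 497 on both arrays, so that scaling was kept.

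Of 45037 probe sets, 34945 had 1 symbol in a platform annotation of 2016, 932 had several and 9160 none; only the first kind was used. All 40 member symbols matched the RefSeq gene table by gene identifier. A gene was its probe set with the highest mean linear signal. Values come from Python 3.11.15 with statsmodels 0.14.6 for loess, and the steps were tested on simulated data. The simulated shifts were larger than the ratio of Clasrp and were put in brighter genes. That test therefore does not cover a difference like that of Clasrp. With 1 array per group, their number limits the precision and no p-value was computed. Members and lists were chosen with earlier results of these data known. Named were members past 2-fold, the 5 highest and 5 lowest of each role, and genes whose probe sets spanned 1 log2 unit; any other probe set was named after its values were seen. Alternatives were centring, quantile normalization, loess (span 0.3), a floor at percentile 75 or 99, none at all (pseudocount 1), the median over probe sets, leaving out probe sets with letter suffixes, and 1.5-fold and 3-fold thresholds.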

Additional observations from a re-analysis of the deposited data

How the results depend on the processing

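No paired analysis was possible because each group has 1 array. Clasrp was the gene past 2-fold under every scaling and floor tried; leaving out probe sets with a letter suffix (_a_at, _s_at, _x_at) removed its only probe set, so 0 member genes were then 2-fold higher, as at 3-fold and among the brightest 25% of genes (the last chosen after seeing the data). Without the letter suffixes 1.46% of all genes were 2-fold higher, and 0.0827% were at least 3-fold higher with them. With no floor 1 of 40 member genes was 2-fold lower, Srsf12, whose signals are below the floor on both arrays. Of all 18193 genes, 8.14% were then 2-fold lower and 12.2% higher. Member probe sets at least 2-fold higher numbered 5 of 122 with a floor at percentile 75, against 4.40% of all probe sets. With no floor 6 of 126 were higher (12.8% of all) and 2 lower (9.02% of all). Without the letter suffixes 1 of 62 was higher (1.41% of all). At 1.5-fold 4 of 116 were higher (8.02% of all) and 3 lower (3.56% of all). At 3-fold 0 of 116 were higher (0.0911% of all). Centring turned the members' median ratio to -0.060, with 9 genes above 0, and moved the median of all genes by -0.062. The other scalings went the other way. The members' median stayed above 0 after quantile normalization, with 23 genes above 0, and after loess, with 24. Genes whose probe sets spanned 1 log2 unit numbered 5 of 26 with a floor at percentile 75 (19.4% of all such genes) and 0 with the 2 brightest probe sets, the latter chosen after seeing the data. Of 1058 single values under alternatives, 1035 moved by less than the scatter of 0.29, and 23 by more. Much of that count was fixed beforehand, so it does not measure robustness. Centring shifts all values above the floor alike, and another floor leaves values above it unchanged. The brightest probe set of a gene was also counted again as a probe set. Among the 1058 the sign changed in 81, up to 0.30 in size as reported (Hnrnpd, at -0.28 without the letter suffixes). It changed in 0 of those past 2-fold, which are Clasrp and 1 probe set of Srrm1. For the median, a move was counted above 0.046, the scatter divided by the square root of the number of genes. Without the letter suffixes, the brightest probe set left for Hnrnpc was at -0.80, for Srsf2 at -0.75 and for Hnrnpr at 0.72. Leaving out a replicate was not possible.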

Other observations

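A further 7 probe sets were annotated to several genes, at least 1 of them a symbol of the families above, and were left out of all gene values. They were bright, with log2 signals from 10.6 to 12.9 on the control array, and their ratios lay between -0.23 and 0.05.

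By suffix, the 15 member probe sets ending in _s_at had ratios of at most 0.18 in size and the 10 ending in _x_at of at most 0.55, with 0 past 1.5-fold in either kind, against 8.01% and 14.0% of all probe sets of those kinds. Of the 29 ending in _a_at, 1 was past 1.5-fold, that of Clasrp at 1.58 (3.45%, against 9.43% of all of that kind). Of the 62 with the plain suffix, 6 were past 1.5-fold (9.68%, against 12.1% of all plain probe sets).

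Of the 10 member probe sets below the floor on both arrays, that of Hnrnpl had the widest gap in deposited signal, at 1.12 in control and 5.26 in knockdown cells. The bright probe set of that gene was at 10.8 and 10.9.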
